A study of Oncorhynchus tshawytscha with 17 samples.

Results

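The genes described here are the ion channel, neurotransmitter receptor and synapse genes that carry a gene symbol in a count table of Chinook salmon hindgut (Oncorhynchus tshawytscha). They were chosen by name alone, as the identifiers that fit the symbols of 19 families of channels, receptors and membrane fusion proteins, and 31 of 42554 named genes did so. Rows known only by a LOC identifier were not used as members. The members fell into 11 of the 19 families, among them 11 potassium channel genes, 4 synaptotagmins, 3 calcium channel genes, 3 TRP channels, 2 SNAP proteins, 2 syntaxins, 2 nicotinic acetylcholine receptor subunits and 1 gene each under the muscarinic, ionotropic glutamate and sodium channel patterns. No identifier fitted the patterns for GABA-A, serotonin or adrenergic receptors, for the neuronal genes elavl3, elavl4, phox2a and ret, or for TRIC channels and ryanodine receptors. The sodium channel pattern held scnm1 alone, which in mammals encodes a splicing protein named for its effect on a sodium channel and is not itself a channel.

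The study compared 6 healthy control fish with 5 fish given antibiotics and 6 fish given probiotics, each treatment for 10 days. All 17 fish were labelled diploid, and the labels of the treated fish add that they were killed with an overdose of clove oil. Neither the antibiotic agents nor the probiotic strains or doses are named in the labels. Fish are named here by group (ctl for control, abx for antibiotic, pro for probiotic) and by the end of the library title, such as ctl12A, where the number is shared by 2 or 3 fish of a group. Each library was made from total hindgut RNA and sequenced as paired 100-base reads, and the labels give the cell type as epithelia. Summed counts were 38.1 to 56.7 M in control, 39.9 to 59.4 M in antibiotic and 28.6 to 61.1 M in probiotic fish. Epithelial markers were abundant in every fish, with a summed level of 8301 to 14160 CPM (counts per 1 M counts of the library, after TMM scaling) over 14 genes, led by cubn. Muscle RNA was present too, since 9 smooth muscle markers summed to 1060 to 3906 CPM, so the libraries held the RNA of more than epithelium.

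The vertebrate gut wall holds its own network of neurons, which release transmitter onto smooth muscle, epithelium and each other. Voltage-gated calcium channels trigger that release, potassium channels end the electrical signal, and receptors for acetylcholine and glutamate receive it. Release itself is membrane fusion by SNARE proteins (syntaxins, SNAP proteins and their vesicle partners) under the control of synaptotagmins, and relatives of the same proteins serve secretion and recycling in every cell. TRP channels let calcium, magnesium and other cations into many cell types in response to stretch, store depletion or oxidative stress.

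The SNARE genes snap23 and snap29 were by far the most abundant members, and most channel and receptor genes among the members were scarce. Levels of different genes are compared per length, as CPM divided by the deposited exon length in kilobases (RPKM). The gene snap23 encodes the widely expressed SNARE protein of the plasma membrane, and lies on the minus strand of sequence NC_037107.1 from base 17813841 to 17834234, in the coordinates of the deposited table, whose build is not given. Its mean level was 74.1 ± 16.2 RPKM (SD, n = 17 fish) with a range of 51.5 to 106 RPKM. It made up 59.8% of the summed RPKM of all members. The gene snap29, for a SNARE of internal membranes, followed with 20.8 ± 2.77 RPKM, or 16.8% of the sum. The syntaxin stx17, which in mammals pairs with SNAP29 in the fusion of autophagosomes with lysosomes, had 8.25 ± 1.44 RPKM, and stx16, a syntaxin of the trans-Golgi network, had 2.41 ± 0.233 RPKM. These 4 SNARE genes each had counts in every fish, and their order of mean levels was snap23, snap29, stx17, stx16.

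Among the channel genes that are members, the TRP genes trpm7 and trpc1 stood highest. The channel and kinase gene trpm7 had 4.93 ± 1.66 RPKM, and trpc1, for a cation channel subunit linked to store-operated calcium entry, had 4.03 ± 2.43 RPKM, so their ranges over fish overlapped. The splicing gene scnm1 had 2.75 ± 0.604 RPKM. The calcium channel genes were led by cacnb2, for an accessory beta subunit, at 1.77 ± 0.591 RPKM, and cacna2d4, for an accessory alpha2delta subunit, at 1.07 ± 0.312 RPKM. The pore-forming T-type gene cacna1g was far below both accessory genes at 0.0331 RPKM, with as few as 1 count in a fish. Of the 31 members, 9 had a mean over 1 RPKM and 15 a mean under 0.1 RPKM.

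The synaptotagmin, receptor and potassium channel genes among the members lay below 1 RPKM. Among synaptotagmins, syt17 was highest at 0.885 ± 0.389 RPKM over a deposited exon length of only 615 bases, and syt16 and syt12, whose mammalian proteins lack calcium-dependent binding, had 0.382 and 0.238 RPKM. The muscarinic receptor gene chrm2 had a mean of 0.0939 RPKM with counts in 16 of 17 fish, and gria2, for an AMPA-type glutamate receptor subunit, had 0.0467 RPKM with counts in 16 of 17 fish. Of the potassium channel genes, kcnk10, for a leak channel of the TREK group, had 0.464 ± 0.182 RPKM, kcnmb4, for an accessory subunit of the calcium-activated BK channel, 0.376 ± 0.170 RPKM, and kcnd1, for a fast inactivating A-type channel, 0.300 ± 0.112 RPKM. Both leak channel genes kcnk13 and kcnk10 lie on the plus strand of NC_037107.1, 139834 bases apart, and 6 members in all lie on that sequence.

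For 9 members the counts were too few to test, with mean levels of 0.0248 to 0.163 CPM and as few as 18 counts in all 17 fish together. They included the potassium channel genes kcnq3, kcnh5, kcnip2, kcnt2 and kcnh7, the muscle nicotinic receptor subunit genes chrng and chrnb1, and syt14. The nicotinic genes had counts in 12 and 10 of 17 fish. The remaining 22 members were among the 30221 genes that passed edgeR's filter on low counts, and 19 of them had a count in every fish.

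**Figure D1:**
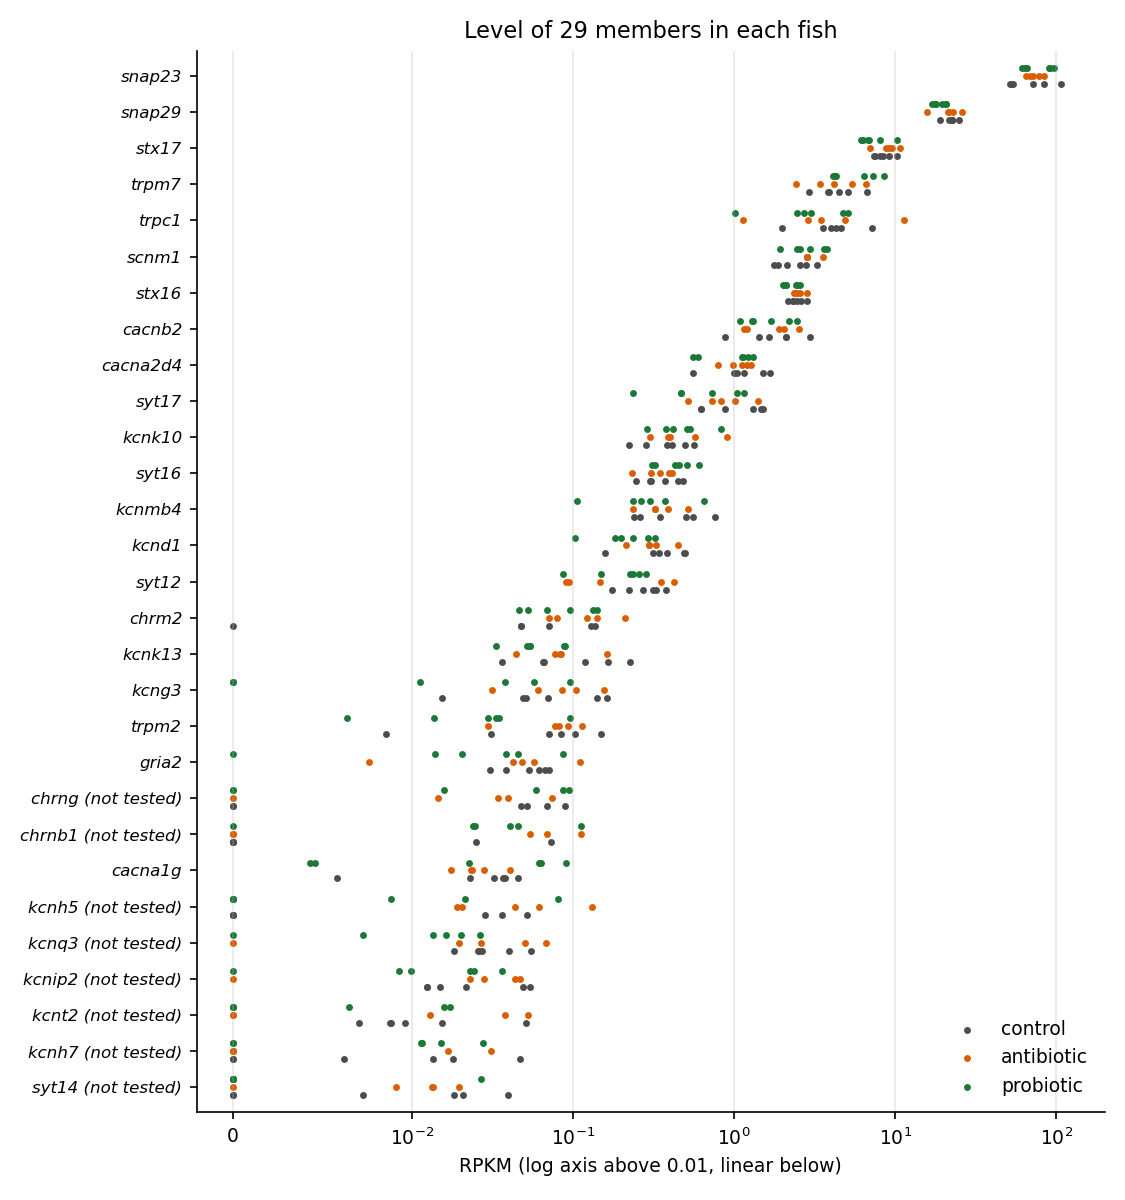
Level of each of 29 members in each of the 17 fish in RPKM, on an axis that is logarithmic above 0.01 and linear below. Colours give the 3 groups, one dot is one fish, and names marked as not tested had too few counts. The SNARE genes snap23 and snap29 lie well to the right of every other member, and the 3 groups overlap in every member drawn.

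The members differed widely in how steady they were from fish to fish. The steadiest was stx16, which ran from 5.80 to 8.17 CPM, a ratio of 1.41 between the highest and the lowest fish, and its spread within groups was smaller than that of all but 0.724% of tested genes within 1.5-fold of its level. The ratio was 1.65 for snap29, 1.75 for stx17 and 2.06 for snap23. It was 3.41 for cacnb2 and 3.55 for trpm7. Levels of trpc1 varied far more and ran from 2.93 to 32.5 CPM, with a spread within groups above that of 96% of tested genes of similar level. Among members with at least 1 CPM, trpc1, kcnk10, cacnb2 and kcnd1 were among the 5 of largest spread within groups, with standard deviations of 0.89 for trpc1 and 0.52 to 0.53 for the other three on the log2 CPM scale.

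The spread of 9 members ran alongside a score of enteric neuron and glia markers. For each fish the mean log2 CPM of 18 tested marker genes of enteric neurons and glia was taken as a score, and none of these markers is a member. This relation and the scores for smooth muscle (8 genes), epithelium (14 genes) and log2 sequencing depth were examined after the data had been seen, as 88 relations of 22 members with 4 measures, by 100000 permutations with Benjamini-Hochberg adjustment over the 88. The neuron and glia score ran from 0.934 in pro139C, 0.982 in abx67B and 1.171 in ctl12C to 2.19 in ctl35C. The fish pro139C, abx67B and ctl12C were also lowest in the smooth muscle, synaptic release, synaptic adhesion, interstitial cell of Cajal and enteroendocrine scores. Apart from smooth muscle, relations of members with those scores were not examined, so the relation cannot be assigned to neurons and glia alone. Of the 22 members, 6 rose and 3 fell with the neuron and glia score at an adjusted permutation p under 0.05 for both Pearson's r and Spearman's rho. The permutations moved fish freely across groups and title numbers. No p-value was computed for r with group or title number means removed.

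The 6 that rose were kcnd1, trpc1, cacnb2, syt17, syt12 and trpm2, the last a calcium-permeable channel opened in oxidative stress. For kcnd1, Pearson's r was 0.858 (adjusted permutation p = 0.00088) and Spearman's rho 0.767 (adjusted permutation p = 0.0155) over 17 fish. For trpc1, r was 0.854 (adjusted permutation p = 0.00088) and rho 0.701 (adjusted permutation p = 0.0253). Both genes were lowest in pro139C, and the next lowest fish was ctl12C for kcnd1 and abx67B for trpc1, all of low score. For cacnb2, r was 0.822 (adjusted permutation p = 0.00088) and rho 0.782 (adjusted permutation p = 0.0155). The other three had r of 0.735 for syt17, 0.724 for syt12 and 0.681 for trpm2, and their 3 adjusted permutation p-values were 0.0111, 0.0182 and 0.0296. Without the 2 fish farthest from the median score, abx67B and pro139C, r was 0.838 for kcnd1, 0.811 for cacnb2, 0.756 for syt17, 0.693 for trpc1, 0.662 for trpm2 and 0.497 for syt12.

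The 3 that fell with the score were snap23, scnm1 and trpm7. For snap23, r was -0.823 (adjusted permutation p = 0.00176) and rho -0.809 (adjusted permutation p = 0.0141), and the 4 fish of lowest snap23, at 143 to 169 CPM, were ctl35B, ctl12B, ctl35C and pro115B. The same quantities were -0.694 and -0.681 for scnm1 and -0.642 and -0.674 for trpm7, with adjusted permutation p-values for r of 0.0253 and 0.0422. Without the same 2 fish, r was -0.901 for snap23, -0.568 for scnm1 and -0.526 for trpm7. With the means of the title numbers removed r was 0.846 for kcnd1, 0.799 for trpc1, 0.762 for cacnb2, 0.715 for trpm2, 0.679 for syt12 and 0.582 for syt17, and -0.691 for snap23, -0.64 for scnm1 and -0.286 for trpm7. Within title numbers the r of trpm7 was thus the nearest to 0 of these 9 genes. With group means removed, r was 0.888 for kcnd1, 0.849 for trpc1, 0.833 for cacnb2 and -0.809 for snap23.

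**Figure D2:**
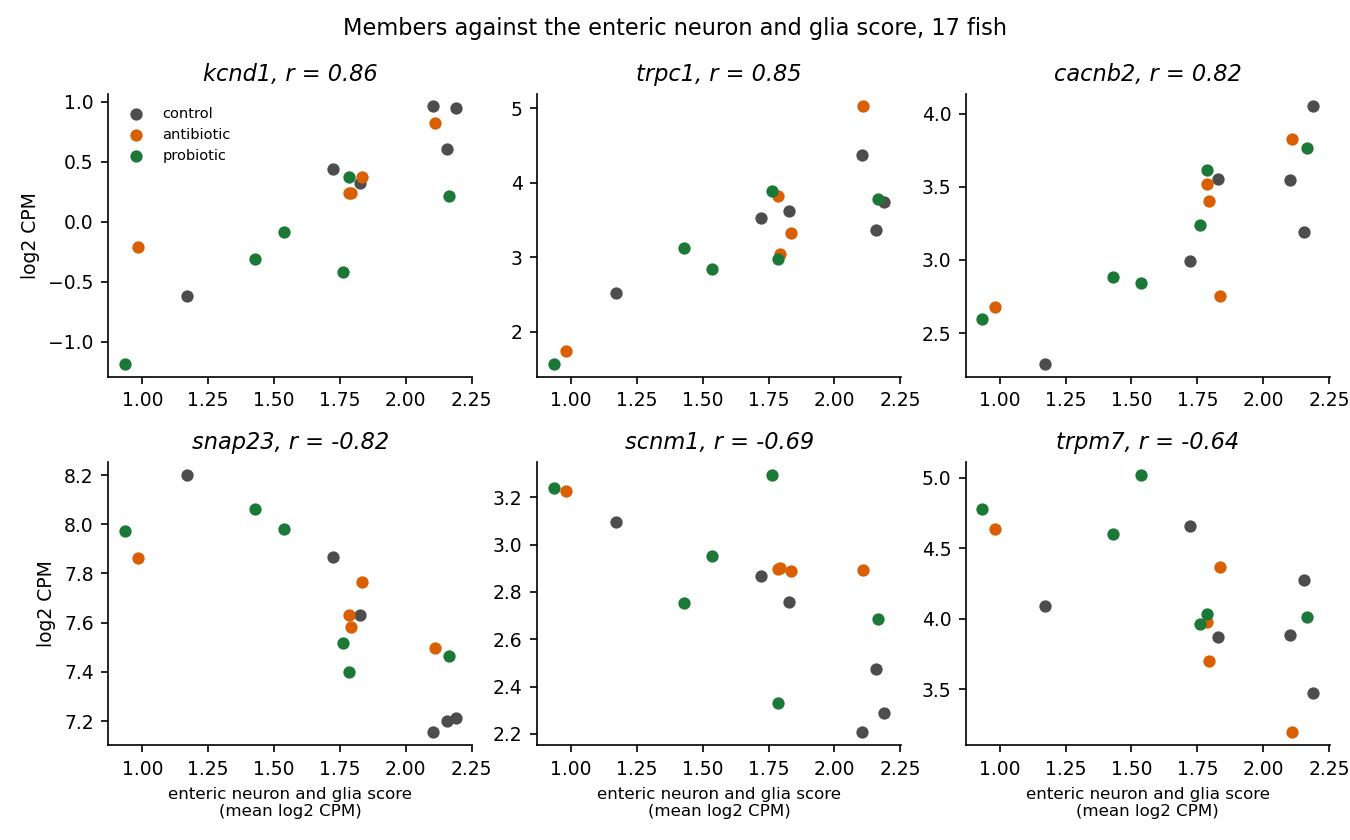
Log2 CPM of 6 members (vertical axes) against the enteric neuron and glia score, the mean log2 CPM of 18 marker genes (horizontal axes), with one dot per fish coloured by group and Pearson's r in each title. In the top row kcnd1, trpc1 and cacnb2 are higher in fish of higher score, and in the bottom row snap23, scnm1 and trpm7 are lower, with all 3 groups spread along the axis.

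Fewer relations passed in both measures with smooth muscle, epithelium and depth. With the smooth muscle score, kcnd1 rose (r = 0.713, adjusted permutation p = 0.0182) and scnm1 fell (r = -0.657, adjusted permutation p = 0.0361). Members trpm2, syt12 and cacnb2 passed there for Pearson's r only. Their r was 0.621, 0.615 and 0.613, with adjusted permutation p of 0.0484, 0.0492 and 0.0492 for r and 0.0512, 0.195 and 0.243 for rho. Title number means removed, r with smooth muscle was 0.775 for cacnb2, 0.735 for kcnd1, 0.681 for trpm2, 0.52 for syt12 and -0.525 for scnm1. With the epithelium score only trpc1 passed in both measures, with r of -0.614 (adjusted permutation p = 0.0496) and rho of -0.699, and r was -0.168 with the means of the title numbers removed and -0.721 with those of the index columns in the library titles removed. With log2 depth none of the 22 members passed in both measures. In bulk samples fewer cells of a type and less RNA per cell cannot be told apart, and CPM values of 1 library share its total, so these relations were not resolved by cell type. Among the 231 pairs of tested members the median r was 0.08, 6 pairs were above 0.7 and 8 below -0.7. The highest was kcnd1 with syt17 at 0.844, and kcnd1, trpc1 and cacnb2 had r of 0.727 to 0.742 with each other. The lowest was snap23 with cacnb2 at -0.816.

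**Figure D3:**
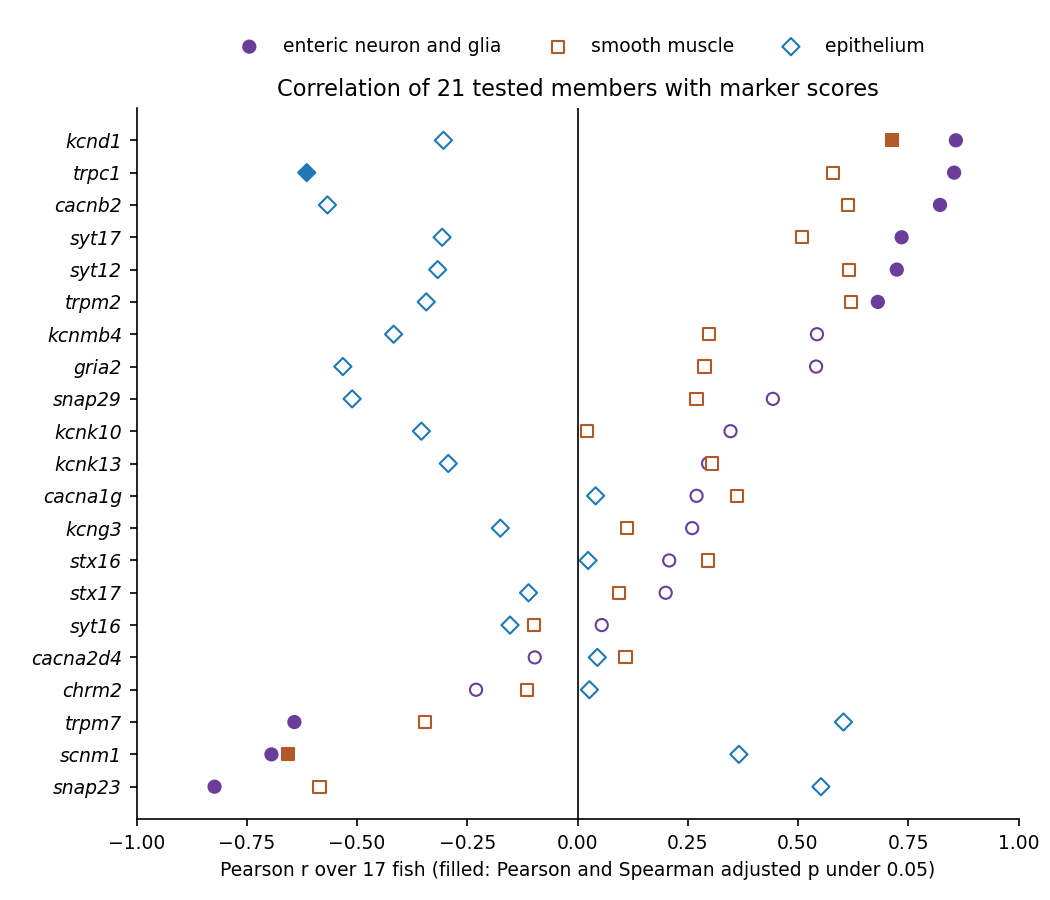
Pearson's r over 17 fish of each of 21 tested members with 3 marker scores, neuron and glia (circles), smooth muscle (squares) and epithelium (diamonds). Filled symbols passed an adjusted permutation p of 0.05 for both Pearson's r and Spearman's rho, which 9 circles, 2 squares and 1 diamond did.

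Against controls, antibiotic fish showed no member past the test. Of the 22 tested members, 10 had a higher and 12 a lower mean in antibiotic fish, and their median log2 fold change was -0.037 beside 0.019 over all 30221 genes tested. None was called by edgeR's quasi-likelihood test at an adjusted p under 0.05, beside 0% of all genes (0 of 30221). Also 0 members had an unadjusted p under 0.05, beside 6.21% of all genes (3.68% higher and 2.53% lower). DESeq2 and limma-voom also called 0 members, beside 26 and 0 of all 30221 genes. Both had 0 members at an unadjusted p under 0.05, beside 7.02 and 5.59% of all genes. In no member were the groups free of overlap, which held for 0.199% of genes higher and 0.285% lower. The smallest adjusted p of a member was 0.831, for scnm1.

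That gene, scnm1, had 7.42, 9.33, 7.36, 7.39 and 7.41 CPM in abx67A, abx67B, abx67C, abx91A and abx91B, and a lowest, median and highest of 4.58, 6.12 and 8.50 CPM in controls. Of the antibiotic fish 4 lay close together within the control range and abx67B above it, so the groups overlapped. The log2 fold change was 0.32 ± 0.19 (SE), with an edgeR adjusted p of 0.831. The muscarinic receptor gene chrm2 was next, at 0.152, 0.235, 0.270, 0.136 and 0.402 CPM in antibiotic fish and 0, 0.113 and 0.262 CPM at the lowest, median and highest in controls. Its values rest on at most 24 counts in a fish, and the log2 fold change was 0.82 ± 0.59 with an edgeR adjusted p of 0.856, and 0.53 without abx91B. For the leak channel gene kcnk10 the antibiotic fish had 2.25, 1.72, 2.31, 5.21 and 3.30 CPM, and the controls 1.29, 2.29 and 3.27 CPM at the lowest, median and highest. Both abx91 fish were above every control and the other three within the control range, for a log2 fold change of 0.38 ± 0.32 with an edgeR adjusted p of 0.872. Without abx91A it was 0.07.

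Others among the 10 members of smallest p were syt12 at a log2 fold change of -0.34, kcnk13 at -0.32, kcnmb4 at -0.31, syt17 at -0.25, kcnd1 at -0.20 and stx17 at 0.09, with edgeR adjusted p-values of 0.916 to 0.939. By role, all 3 calcium channel genes and all 3 synaptotagmins had a lower mean and both syntaxins a higher one, and 2 of the 5 potassium channel genes were higher and 3 lower. The SNARE gene snap23 had 204 ± 21.0 CPM in antibiotic and 194 ± 61.0 CPM in control fish. Its log2 fold change was 0.07 with a 95% interval from -0.32 to 0.47, and for stx16 the interval was -0.20 to 0.28. For trpc1 it was -0.84 to 1.14, so large differences of the more variable genes lay within their intervals.

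Against controls, more members were lower than higher in probiotic fish, again without a call. Of the 22, 15 were lower and 7 higher, and their median log2 fold change was -0.22 beside 0.0047 over all genes, of which 50.7% were higher. edgeR called 0 members, beside 0% of all genes. An unadjusted p under 0.05 was reached by 2 members, both lower, which is 9.09% of the 22 beside 9.71% of all genes in either direction (5.29% higher and 4.42% lower). DESeq2 and limma-voom also called 0 members, beside 35 and 0 of all 30221 genes. Each had 3 members (13.6%) at an unadjusted p under 0.05, beside 11 and 9.7% of all genes. No member's groups were free of overlap, which held for 0.126% of genes higher and 0.165% lower.

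The A-type potassium channel gene kcnd1 had the smallest p. Its lowest, median and highest values were 0.397, 0.831 and 1.25 CPM in probiotic and 0.609, 1.39 and 1.90 CPM in control fish. Of the probiotic fish 1 was below every control and none above, and ctl12C lay among the low probiotic values. The means were 0.856 ± 0.306 (SD, n = 6) and 1.40 ± 0.482 CPM (SD, n = 6), a log2 fold change of -0.71 ± 0.31 with an edgeR adjusted p of 0.493. With the neuron and glia score as a covariate, a fit added after the data were seen, its log2 fold change was -0.39, and with the smooth muscle score it was -0.38. The score itself was 1.60 ± 0.41 in probiotic and 1.86 ± 0.39 in control fish (exact permutation p = 0.284, 2-sided). The 20 matched markers of enteric neurons and glia summed to 72.4 to 216 CPM in probiotic, 82.3 to 265 CPM in antibiotic and 94.6 to 233 CPM in control fish, and none was at 0 in all fish. The smooth muscle score was 5.68 ± 0.29 in probiotic and 6.0 ± 0.48 in control fish (exact permutation p = 0.201, 2-sided). Their part in the kcnd1 difference was not tested beyond these fits.

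The SNARE gene snap29 ran from 48.1 to 58.9 CPM with a median of 53.3 CPM in probiotic fish, and from 53.9 to 71.0 CPM with a median of 64.2 CPM in controls. Of the probiotic fish 3 were below every control, and the other three lay in the lower part of the control range. The means were 53.8 ± 4.59 and 63.2 ± 5.57 CPM, a log2 fold change of -0.23 ± 0.11 (95% interval -0.46 to -0.01) with an edgeR adjusted p of 0.511.

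Of others among the 10 members of smallest p, kcng3, for a silent subunit of voltage-gated potassium channels, had a log2 fold change of -1.21, trpm2 of -1.02, kcnk13 of -0.87, syt17 of -0.65 and stx17 of -0.20. The 2 that were higher were trpm7 at 0.38 and scnm1 at 0.27, and edgeR adjusted p-values of all these genes were 0.544 to 0.643. Counts were few for kcng3, trpm2 and kcnk13, at 33, 55 and 49 in all probiotic fish together. For trpm7 the probiotic fish had a lowest, median and highest of 15.6, 20.3 and 32.5 CPM and the controls 11.07, 15.8 and 25.2 CPM. The 3 highest probiotic values were those of the 3 pro139 fish, and without pro139A the log2 fold change was 0.23. By role, 4 of 5 potassium channel genes, 2 of 3 calcium channel genes, 2 of 3 synaptotagmins and both syntaxins had a lower mean in probiotic fish.

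**Figure D4:**
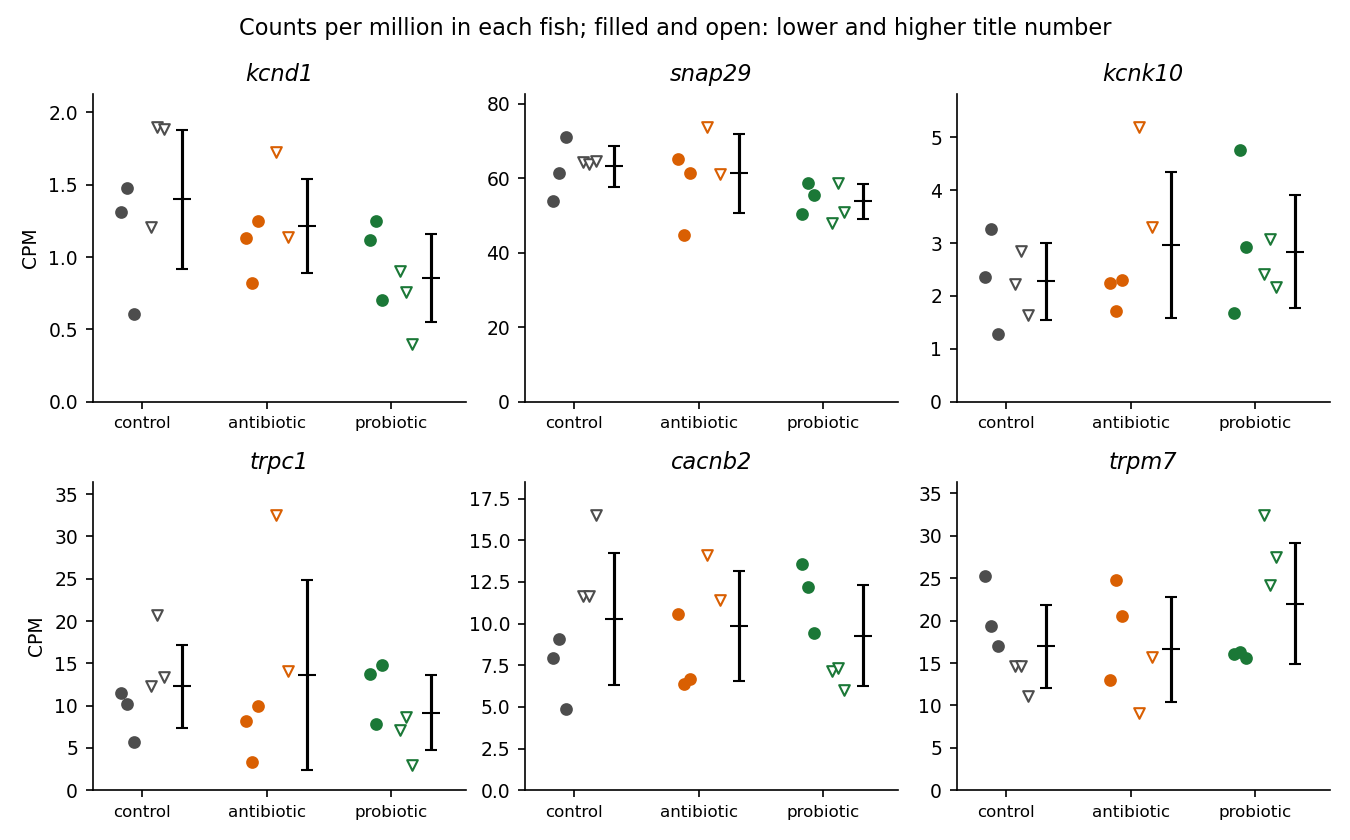
CPM of 6 members in each fish by group, with filled circles for the lower and open triangles for the higher of the 2 title numbers in a group, and mean and SD to the right of the fish. In cacnb2 and trpm7 the 2 title numbers part within each group, apart from 1 abx67 fish in trpm7, while the group means of cacnb2 lie between 9.28 and 10.28 CPM.

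Between the treatments, 18 members had a higher and 4 a lower mean in antibiotic than in probiotic fish, and their median log2 fold change was 0.17 beside 0.0089 over all genes, of which 51.5% were higher. This comparison shares its fish with the other two. edgeR called 0 members, beside 0% of all genes, and 0 members had an unadjusted p under 0.05, beside 6.05% of all genes (3.66% higher and 2.39% lower). DESeq2 and limma-voom called 0 members, beside 18 and 0 of all 30221 genes. They had 0 and 2 members (0 and 9.09%) at an unadjusted p under 0.05, beside 6.95 and 5.93% of all genes. No member's groups were free of overlap, beside 0.218% of genes higher and 0.156% lower.

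The autophagosomal syntaxin stx17 had the smallest p, with 15.2, 12.11, 18.6, 16.6 and 15.8 CPM in abx67A, abx67B, abx67C, abx91A and abx91B, and 10.6, 11.9 and 17.9 CPM (lowest, median and highest) in probiotic fish. Only abx67C was above every probiotic fish and none was below them. The log2 fold change was 0.28 ± 0.15 with an edgeR adjusted p of 0.838. Next were trpm2 at a log2 fold change of 1.11 and kcng3 at 1.31, on means of 0.418 against 0.189 CPM and 0.281 against 0.109 CPM, then kcnd1 at 0.51 and snap29 at 0.19, with edgeR adjusted p-values of 0.847 to 0.860. Further members among the 10 of smallest p were trpm7 at -0.41, syt16 at -0.37, stx16 at 0.14, trpc1 at 0.57 and kcnk13 at 0.55. The values of trpm2, kcng3 and kcnk13 rest on at most 36, 30 and 30 counts in a fish. All 5 potassium channel genes had a higher mean in antibiotic fish, and none passed. The trpc1 value rested on 1 fish. Antibiotic fish had 8.23, 3.29, 9.96, 32.5 and 14.1 CPM and probiotic fish 2.93, 8.26 and 14.8 CPM at the lowest, median and highest, and without abx91A the log2 fold change was -0.05.

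**Figure D5:**
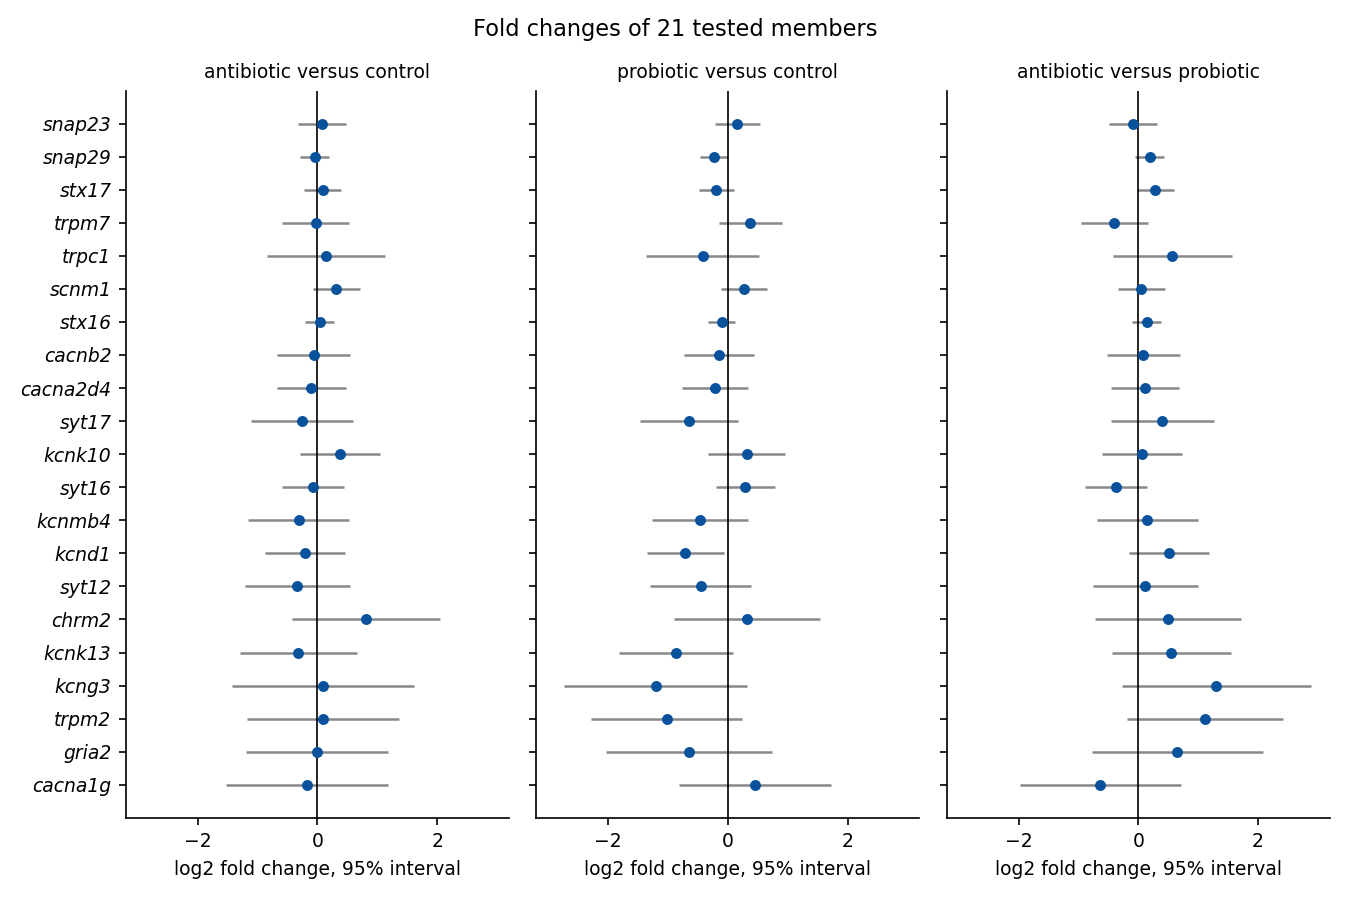
Log2 fold change from edgeR (dots) and its approximate 95% interval (lines) of 21 tested members in the 3 comparisons. Members are ordered by mean RPKM from top to bottom. In the middle panel 14 of 21 dots lie below 0, the intervals of kcnd1 and snap29 end just below 0, and no member drawn passed the adjusted test in any panel.

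Within groups, members were also compared between title numbers. The labels do not say what the numbers stand for. Between ctl12 and ctl35, edgeR called 0 members beside 0% of genes. An unadjusted p under 0.05 was reached by 3 (13.6% of the 22 beside 6.15% of all genes), and 4 did not overlap (18.2% beside 13.1%). Between abx67 and abx91 these were 0 called beside 0%, 4 unadjusted (18.2% beside 7.15%) and 3 without overlap (13.6% beside 23.1%). Between pro115 and pro139 they were 0 called beside 0%, 6 unadjusted (27.3% beside 9.55%) and 7 without overlap (31.8% beside 15%). The unadjusted shares of members were above those of all genes in each of the 3 pairs, and no member passed the adjusted test. The share without overlap was below that of all genes in antibiotic fish. Members also varied together, with an r of -0.751 between cacnb2 and trpm7 over 17 fish, so these counts are not of independent genes.

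The calcium channel gene cacnb2 and the channel gene trpm7 had an unadjusted p under 0.05 in all 3 pairs, in opposite directions to each other. Levels of cacnb2 were 7.94, 9.09 and 4.85 CPM in ctl12 and 11.7, 11.6 and 16.5 CPM in ctl35 fish. They were 10.6, 6.37 and 6.70 CPM in abx67 and 14.1 and 11.41 CPM in abx91 fish. They were 13.6, 12.2 and 9.40 CPM in pro115 and 7.13, 7.33 and 6.01 CPM in pro139 fish. In each pair the fish of one number all lay above those of the other, with log2 fold changes of -0.86, -0.70 and 0.78 (lower number minus higher) and edgeR adjusted p-values of 0.721, 0.679 and 0.478. For trpm7 the means were 20.5 against 13.5 CPM, 19.4 against 12.44 CPM and 16.0 against 28.0 CPM, with log2 fold changes of 0.61, 0.64 and -0.81 and the same edgeR adjusted p-values. In probiotic fish the neuron and glia score did not overlap between pro115 (1.762 to 2.165) and pro139 (0.934 to 1.536), and it overlapped in control fish (1.171 to 2.156 in ctl12, 1.827 to 2.19 in ctl35) and in antibiotic fish (0.982 to 1.835 in abx67, 1.786 to 2.11 in abx91). Its part in these differences was not tested.

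Other members parted by title number in 1 or 2 groups. Means of trpc1 were 7.16 CPM in abx67 and 23.3 CPM in abx91 fish, a log2 fold change of -1.70 with an edgeR adjusted p of 0.607. Among probiotic fish, snap23 had 176 CPM in pro115 and 257 CPM in pro139, a log2 fold change of -0.55. On the other side gria2 had 0.294 and 0.0591 CPM, a log2 fold change of 2.36 on few counts, and kcnmb4 0.873 and 0.400 CPM, a log2 fold change of 1.11, and edgeR adjusted p-values in the probiotic pair were 0.478 to 0.509 for these genes. The pro139 fish were thus lower in both of the last genes and higher in snap23, with no call.

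No gene of the wider pathway was called. In 14 lists of other genes of synapse, excitability and cell type, edgeR called 0 genes in each comparison, beside 0% of all genes. Of 27 genes of the synaptic vesicle and release machinery, 8 were higher and 19 lower in antibiotic and 7 higher and 20 lower in probiotic fish against controls, with median log2 fold changes of -0.12 and -0.22 and none at an unadjusted p under 0.05. The most abundant of them, stxbp2, a partner of syntaxins in secretion, had 286 ± 16.7 CPM in antibiotic, 282 ± 29.6 CPM in probiotic and 322 ± 55.2 CPM in control fish. Of 18 neuron and glia markers, 12 were lower and 6 higher in both treated groups against controls, with medians of -0.07 and -0.35. An unadjusted p under 0.05 was reached by 0 in antibiotic and by 2, both lower, in probiotic fish. Of all genes, 6.21% reached it in antibiotic and 9.71% in probiotic fish, in either direction. These shares also stand beside the 27 release genes. The neuropeptide gene tac1, the most abundant, had 47.6 ± 29.4, 39.1 ± 22.6 and 42.7 ± 18.9 CPM in antibiotic, probiotic and control fish. The glial gene gfap had 0.312 ± 0.0764 CPM in probiotic and 0.608 ± 0.307 CPM in control fish, with an edgeR adjusted p of 0.508.

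Of 8 smooth muscle genes, 7 were lower and 1 higher in both treated groups, with medians of -0.29 in antibiotic and -0.42 in probiotic fish. Of these 8, 2 lower genes in antibiotic and 3 lower and 1 higher in probiotic fish reached an unadjusted p under 0.05. Of all genes, 6.21% and 9.71% reached it in either direction. These shares also stand beside the counts of calcium handling genes and of ion pumps, exchangers and channels. The adhesion gene mcama had 4.55 ± 1.64 CPM in antibiotic, 4.47 ± 1.24 CPM in probiotic and 9.52 ± 5.11 CPM in control fish, with edgeR adjusted p-values of 0.773 and 0.446. In the other direction, itga8 had 11.43 ± 2.186 CPM in probiotic and 7.144 ± 2.995 CPM in control fish, with an edgeR adjusted p of 0.446. The most abundant marker, tpm2, had 1246 ± 271.7, 1123 ± 259.8 and 1444 ± 499.9 CPM in antibiotic, probiotic and control fish. Of 24 calcium handling genes, 13 were higher and 11 lower in antibiotic and 10 higher and 14 lower in probiotic fish, with 1 higher and 2 lower, and 1 lower, at an unadjusted p under 0.05. Among these the sodium-calcium exchanger gene slc8a1a had 2.22 ± 1.053 CPM in antibiotic and 4.41 ± 1.40 CPM in control fish, with an edgeR adjusted p of 0.766, and the calcium release channel gene itpr1 had 19.5 ± 2.603 CPM in probiotic and 25.97 ± 3.97 CPM in control fish, with an edgeR adjusted p of 0.446. Of 25 genes of ion pumps, exchangers and channels outside the rule, 14 were higher and 11 lower in antibiotic fish. Of the higher ones, 2 were at an unadjusted p under 0.05. The stretch-activated channel gene piezo1 had 50.1 ± 15.6 CPM in antibiotic fish and 31.6 ± 4.22 CPM in controls, with an edgeR adjusted p of 0.729. In probiotic fish 12 of the 25 were higher and 13 lower, 1 of the lower ones at an unadjusted p under 0.05, and the lysosomal channel gene tpcn2 had 65.1 ± 6.56 CPM there and 81.7 ± 10.97 CPM in controls, with an edgeR adjusted p of 0.446. Median log2 fold changes in antibiotic and probiotic fish against controls were -0.17 and -0.03 for 15 synaptic adhesion and scaffold genes, 0.30 and 0.08 for 5 markers of interstitial cells of Cajal, -0.18 and 0.12 for 15 enteroendocrine genes, -0.25 and -0.05 for 9 leukocyte genes and -0.66 and -0.63 for 6 erythrocyte genes. At an unadjusted p under 0.05 these 5 lists held 0 or 1 gene in a comparison with control, apart from 2 lower erythrocyte genes in antibiotic fish. The same 6.21% and 9.71% of all genes stand beside these counts. The largest median shifts against control among the 14 lists were those of markers of liver, where all 11 tested genes were higher in antibiotic fish (median log2 fold change 2.50, 8 at an unadjusted p under 0.05 beside 3.68% of all genes higher) and 10 of 11 in probiotic fish (median 1.26, 2 at that p beside 5.29%). Their score was highest in abx67C at 3.11, pro139B at 1.89 and abx67B at 1.47, and ran from -2.06 to 0.73 in the other fish. Of 15 skeletal and cardiac muscle genes, 9 were higher in antibiotic fish (median 0.50). At an unadjusted p under 0.05 there were 4 of the 15, all higher, beside 3.68% of all genes higher. In probiotic fish 12 of the 15 were lower (median -0.39, 0 at that p beside 9.71% of all genes). The 2 exocrine pancreas genes had medians of -0.996 and 1.24, with 0 at that p, and the 14 epithelial genes 0.03 and 0.04, also with 0.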

How the data were processed

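Hindgut RNA of 17 fish was described from the featureCounts table of raw counts per gene that the authors deposited. Trimmomatic 0.38, HISAT2 and featureCounts are the tools named in the submitters' processing notes. Build, strandedness and the treatment of multimapping reads are not given in these sources, so members with close paralogs, common in salmonids, may share or lose reads. Of 42555 rows, 1 has no gene name and was left out (0.155 to 0.523% of counts).

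Counts were tested with edgeR 4.0.16 (R 4.3.3) in 1 fit of all 17 libraries, with filterByExpr (30221 genes kept), TMM factors and the robust quasi-likelihood F-test, 2-sided, Benjamini-Hochberg adjusted over all genes and called at an adjusted p under 0.05. Log2 CPM used a prior count of 2, and RPKM divides CPM by the exon length in the table. Title numbers were compared in the same way with 6 levels in place of the groups. Alternatives were DESeq2 1.42.0, limma 3.58.1 (voom), RLE and upper-quartile factors, other filters, fewer libraries, and the index column, title number or a marker score as a term. The fits were also run on simulated counts, with changes planted only in genes above a minimum level, so scarce members were not covered. Nothing in the labels says whether fish shared a tank. The edgeR and permutation tests took each fish as an independent unit. Their p-values would be too small if fish of a tank resembled each other.

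Members and lists were chosen with earlier results of these data known. Named are the 10 members of smallest p in each comparison, the highest member per family, the 5 most variable, up to 2 genes of smallest p and the most abundant of a list, and the 5 genes most like a member in pattern. List symbols matched gene names with paralog endings and, after the files had been seen, also LOC identifiers through a reference table of assembly Otsh_v2.0, where 30285 of 38153 LOC identifiers were found and 6084 had a symbol, while 4401 identifiers carry their own. Scores of lists were compared by exact permutation. Of the members, 2 are counted in the totals and are not reported here one by one or drawn.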

Additional observations from a re-analysis of the deposited data

Results flagged for a closer look

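Each member was examined in each group of fish for a value that stands apart by Dixon's ratio, and 1 of 66 sets did, where chance gives 3.3. In antibiotic fish the splicing gene scnm1 was highest in abx67B at 9.326 CPM, with the nearest fish at 7.417 CPM. That gap was 0.968 of the whole range of the 5 fish, above the critical value of 0.71. The same fish had the lowest neuron and glia score of its group, at 0.982, and the part of that in its scnm1 level was not tested.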

How the results depend on the processing

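No member was called by edgeR in any of the 3 comparisons of groups under any of 30 alternatives, DESeq2 and limma-voom included, nor between title numbers under 21. DESeq2 called 26, 35 and 18 genes over the whole table. The median log2 fold change of the members ran from -0.135 to 0.164 for antibiotic against control, from -0.323 to -0.155 for probiotic against control and from 0.102 to 0.362 for antibiotic against probiotic, and leaving out each fish in turn gave -0.135 to 0.015, -0.277 to -0.22 and 0.152 to 0.273. With the index column as a term, 1, 7 and 5 members had an unadjusted p under 0.05 in these comparisons (4.55, 31.8 and 22.7% of the 22, beside 6.29, 14.7 and 16% of all genes), and none was called. The index columns were spread unevenly over the groups, with antibiotic fish in columns 9 and 12 only, so this term is partly confounded with group. The index in the title of abx67C cannot be read without doubt.

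The median for antibiotic against control changed sign with the index column (0.164), the smooth muscle score (0.083) or the neuron and glia score (0.017) as a term and without abx67B (0.015). Of the values for single genes, scores and correlations, 14 changed sign, none of them past the threshold. For antibiotic against control the index column gave log2 fold changes of 0.039 for syt12, 0.193 for kcnmb4, 0.166 for kcnk13, 0.201 for kcnd1 and 0.277 for syt17. The smooth muscle score as a covariate gave 0.158 for kcnd1 and 0.064 for syt17, and the neuron and glia score 0.027 and 0.018. Without abx67C, abx91B, pro139B and pro139C together, a set taken over from earlier work on these data, syt12 had 0.031 and stx17 -0.03. With each fish left out in turn, trpc1 ran from -0.05 (without abx91A) to 0.809 for antibiotic against probiotic. Upper-quartile factors gave score differences of -0.015 for enteroendocrine and -0.028 for ion pump, exchanger and channel genes in probiotic against control. The cause of these turns was not tested. No paired analysis was possible because the groups share no replicate number. Over all genes tested, fish that share a title number had a consensus correlation of 0.04 in limma. No such value was computed for the members alone. Depth limits the scarce members: 9 could not be tested, and 15 lay under 0.1 RPKM.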

Other observations

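Patterns over the 17 fish were compared with that of trpc1 on the log2 CPM scale. The gene outside the rule most like trpc1 was cckar, the receptor of the gut hormone cholecystokinin, with an r of 0.932 and a rho of 0.836, followed by LOC112215650 at an r of 0.931, LOC112265866 at 0.928, LOC112223461 at 0.923 and filip1 at 0.923. The gene for cckar is LOC112237319, named from the reference table. These genes are the top of a search through genes outside the rule, so their r is high by selection. No p-value and no r without abx91A, the fish of highest trpc1, is given for them.

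A further 109 LOC rows carry a symbol in the reference table that the rule would take, and 61 of them were tested. Together with the members these are 83 genes, of which edgeR called 0 in each comparison. At an unadjusted p under 0.05 they were 4.82% in antibiotic against control, 7.23% in probiotic against control and 1.2% in antibiotic against probiotic, beside 6.21, 9.71 and 6.05% of all genes. In probiotic against control all 6 of these were lower, the members kcnd1 and snap29 among them, beside 4.42% of all genes lower at that p. The median log2 fold change of the 83 genes was -0.20.

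Markers of liver, exocrine pancreas and skeletal and cardiac muscle varied between fish, and where this RNA came from was not tested. The 13 liver markers summed to 7.77 to 17.4 CPM in control, 6.75 to 146 CPM in antibiotic and 7.86 to 72.8 CPM in probiotic fish, and the 3 exocrine pancreas markers to 7.09 to 60.2, 4.57 to 31.7 and 7.04 to 343 CPM. Scores of skeletal and cardiac muscle were 0.65 ± 0.88 in antibiotic, 0.01 ± 0.36 in probiotic and 0.35 ± 0.60 in control fish.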
